A study of Mus musculus with 4 samples.

Results

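Of 8 long noncoding RNAs chosen by name (Gas5, Snhg1, Snhg3, Snhg11, Miat, Tug1, Dleu2 and Rmst), 7 were found in the mouse hippocampus data, as rows of the value table that carry that single gene symbol. Dleu2 had 2 such rows and the others had 1 each, which gave 8 rows out of 27090 singly named rows and 265511 rows in all. No row was found for Rmst under its symbol, its synonyms or its Entrez identifier, so Rmst was not analysed here. A further 2 rows carried Snhg3 together with another symbol and were not used for it. The samples were hippocampi of 4 C57BL/6 mice labelled as untreated males aged 3 months, 2 wildtype and 2 Malat1 knockout, with 1 Affymetrix mouse exon array per animal. Wildtype and knockout animals were littermates according to the design text, and the labels do not name the deleted stretch of Malat1. Hippocampi were dissected whole, although a label speaks of neurons. Total RNA of dissected tissue was measured, so fewer cells of a type and less RNA per cell cannot be told apart.

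The question was how gene expression changes when Malat1, a long noncoding RNA of nuclear speckles, is lost. These other long noncoding RNAs were examined for a change beside that of Malat1. They were chosen by name and do not stand for the whole class. Most of them do their known work as RNA. Gas5, Snhg1, Snhg3 and Snhg11 are small nucleolar RNA host genes: their introns carry the guides of ribosomal RNA modification and processing, while the spliced exons that remain code for no known conserved protein. In several such hosts the spliced RNA is translated from its 5′ end and then removed by nonsense-mediated decay. Gas5 RNA accumulates in growth-arrested cells and can bind the glucocorticoid receptor. Miat, also called Gomafu, forms nuclear spots in neurons that are distinct from speckles and binds splicing factors such as SF1 and Quaking. Tug1 was named for its upregulation by taurine in the retina. Dleu2 is the host of miR-15a and miR-16-1.

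The annotated start of each measured RNA is shown because hosts of this kind often begin, as ribosomal protein mRNAs do, with a C followed by a run of C and T (the 5′ terminal oligopyrimidine motif). The sequences are RefSeq's, on build GRCm38.p6, matched by symbol, and each runs from 40 bases before the first transcribed base to 30 bases from it, 5′ to 3′ on the strand of the gene. Capitals mark the first 10 transcribed bases.
Gas5, upstream start (chr1:161034561-161034630, plus strand): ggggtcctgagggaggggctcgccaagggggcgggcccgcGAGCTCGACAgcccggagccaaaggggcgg
Gas5, downstream start (chr1:161035126-161035195, plus strand): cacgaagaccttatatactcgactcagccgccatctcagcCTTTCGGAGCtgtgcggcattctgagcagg
Snhg1 (chr19:8723447-8723516, plus strand): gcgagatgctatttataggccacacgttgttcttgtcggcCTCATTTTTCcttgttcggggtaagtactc
Snhg3 (chr4:132353657-132353726, minus strand): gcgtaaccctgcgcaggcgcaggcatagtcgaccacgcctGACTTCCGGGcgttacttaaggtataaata
Snhg11 (chr2:158375673-158375742, plus strand): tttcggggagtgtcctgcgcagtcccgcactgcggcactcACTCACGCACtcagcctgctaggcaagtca
Miat (chr5:112228919-112228988, minus strand): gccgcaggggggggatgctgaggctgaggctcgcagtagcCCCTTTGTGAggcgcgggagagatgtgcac
Tug1 (chr11:3648785-3648854, minus strand): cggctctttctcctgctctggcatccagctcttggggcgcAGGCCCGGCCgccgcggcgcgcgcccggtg
Dleu2 (chr14:61682344-61682413, minus strand): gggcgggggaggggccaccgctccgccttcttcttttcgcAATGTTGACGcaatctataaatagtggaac

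A C at the annotated first base followed by at least 4 C or T was present at the downstream Gas5 start and at Miat. That is 2 of these 8 starts (25%), against 2.51% of 32851 annotated mouse starts and 17.8% of 73 starts of ribosomal protein genes. Miat is not among the small nucleolar RNA hosts, and the upstream Gas5 start and those of Snhg1, Snhg3 and Snhg11 had no such match. Allowing 5 bases to either side of the annotated first base added Snhg3, for 3 of 8 starts (37.5%). The shares were then 18.3% of all starts and 42.5% of the ribosomal protein starts. The letters TATAAA, read on both strands over the 300 bases of the table's window, were found in 3 of the 8 starts (Snhg1, Snhg3 and Dleu2) and in 13.6% of all starts. In Snhg1 the match began 29 bases before the first transcribed base, on the opposite strand. In Snhg3 and Dleu2 it began 22 and 15 bases after that base. Between 40 and 16 bases before the first transcribed base, 1 of the 8 starts (Snhg1) held these letters, against 2.48% of all starts. The downstream Gas5 start held the cAMP response element TGACGTCA, which reads the same on both strands, 46 bases before the first transcribed base, and 1.79% of all starts held it somewhere in the window. The letters GGGCGG, on either strand of the window, were found in 6 of the 8 starts, in 35.7% of all starts and in 57.5% of the ribosomal protein starts. GC content of the window ran from 46.0% at Snhg3 to 73.7% at the upstream Gas5 start. These matches describe letters at annotated starts and no factor was measured.

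Dleu2 carries a pair of microRNAs that share a seed (bases 2 to 8, in capitals), and these are given because they are the best-known product of that locus. The mature 5p forms, on the minus strand of chromosome 14 in GRCm38.p6 and from RefSeq, read as follows.
mmu-miR-15a-5p (chr14:61632075-61632096): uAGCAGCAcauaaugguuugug
mmu-miR-16-5p (chr14:61631936-61631957): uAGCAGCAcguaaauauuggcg
None of the 30 names of small nucleolar RNAs and microRNAs listed for the introns of these hosts had a singly named row, so the small RNAs were not analysed here.

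Values are log2 array signal as deposited, and folds are folds of that signal, which arrays compress. Array medians over all rows ran from 5.59 to 5.63. All 8 rows of the chosen RNAs lay above the filter level of 5.70, the 25th percentile of row means over the singly named rows, and 20317 rows were tested. The row named Malat1 had a 6.10-fold lower signal in knockout than in wildtype hippocampus (limma, adjusted p = 0.0364). Its call ended when any 1 array was left out (adjusted p from 0.285 to 0.541). Knockout replicate 2 stood apart, with median absolute differences of 0.0823 to 0.0901 from the other arrays, against 0.0512 to 0.0629 among those. Of 12 tested rows of neuronal markers, Prox1, Slc17a7, Snap25 and Rbfox3 among the genes, 0 passed the limma threshold and 0 had an unadjusted p under 0.05. Of the other marker lists, 4 of 4 oligodendrocyte rows lay below 0 (median -0.07) and 3 of 3 astrocyte rows above 0 (median 0.09). The choroid plexus gene Ttr stood at -0.54 and the brightest row of the floor plate factor Foxa2 at -0.36. By limma their unadjusted p values were 0.0354 and 0.0127 (adjusted p = 1 for both). Both rows were lower in the knockout without overlap between the genotypes, as were 15.1% of all rows tested. The other rows of their marker lists lay on both sides of 0. Markers of microglia, vessels and thalamus had medians of -0.02, -0.02 and -0.00. No marker row passed the adjusted limma threshold, and the part of tissue composition in the results below was not tested. The row named Xist, the RNA made from the inactive X chromosome of females, read 10.63 and 10.52 in the wildtype and 10.45 and 10.45 in the knockout arrays, although the labels give male mice. The row of the Y-linked gene Kdm5d read 6.32 and 6.25 in wildtype and 6.36 and 6.23 in knockout. The difference between genotypes was -0.12 for Xist and 0.01 for Kdm5d. Other tested Y-linked rows stood at 0.21 (Eif2s3y) and at -0.07 and 0.41 (Uty), with unadjusted limma p values of 0.217, 0.566 and 0.276, and what the Xist signal reflects was not tested.

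None of the 8 rows passed the adjusted threshold of 0.05 (limma, Benjamini-Hochberg over all 20317 rows, lowest adjusted p = 1). Over all rows tested 0.00492% passed, which is Malat1 alone. At an unadjusted p under 0.05 there was 1 of the 8 rows, Snhg1, against 4.02% of all rows (2.29% lower and 1.73% higher in the knockout). In the knockout 5 rows lay below wildtype and 3 above, with a median log2 difference of -0.05, and over all rows 52.3% lay below with a median of -0.00. The arrays of the genotypes did not overlap in 2 of the 8 rows, Snhg1 (lower in the knockout) and Miat (higher). Over all rows tested 15.1% were without overlap and lower and 14.2% without overlap and higher, so 2 of 8 is close to the background of 29.2%. The 95% intervals of the 8 rows allowed a signal at most 1.55-fold lower or 1.39-fold higher in the knockout, without adjustment for the number of rows.

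**Figure D1:**
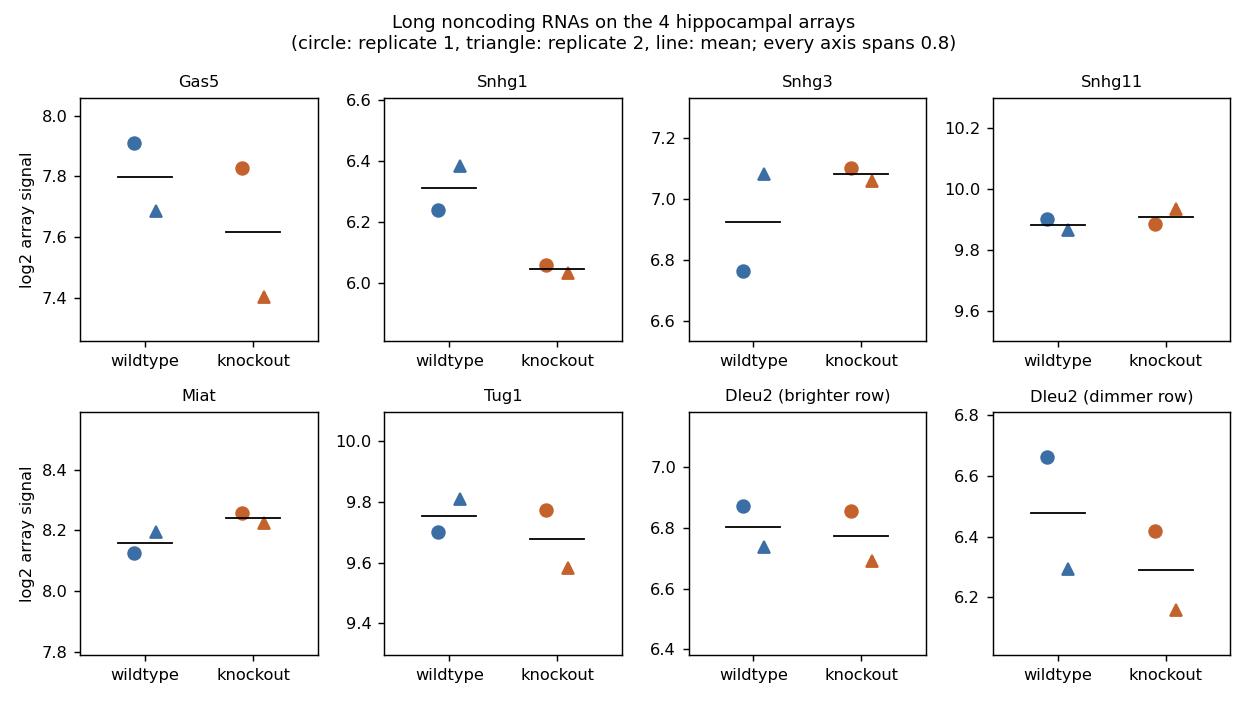
Log2 array signal (vertical axis, each panel spanning 0.8) of the 8 rows on each array, with wildtype on the left and knockout on the right of each panel. Circles are replicate 1, triangles replicate 2 and lines the mean of 2 arrays. Both knockout arrays lie below both wildtype arrays for Snhg1 and above them for Miat, and the groups overlap in the other 6 panels.

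Snhg1, the host of a cluster of C/D box small nucleolar RNAs and a gene of chromosome 19 like Malat1, differed most (row 6867954). It read 6.24 and 6.38 (log2) in wildtype hippocampus and 6.06 and 6.03 in knockout hippocampus. Both knockout arrays were lower, and they differed from each other by less than the wildtype arrays did. The means were 6.31 ± 0.10 and 6.04 ± 0.02 (SD, n = 2 each), a signal 1.20-fold lower in the knockout (95% interval 1.06 to 1.37). By limma the unadjusted p was 0.0158 and the adjusted p over all rows was 1. By p it ranked 276th among the rows tested. The difference kept its direction when any 1 array was left out, between -0.34 and -0.19, with unadjusted limma p values from 0.0166 to 0.0876.

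Gas5, the host of another C/D box cluster, had the widest range over the 4 arrays (row 6754519). It read 7.91 and 7.69 in wildtype and 7.83 and 7.40 in knockout. Knockout replicate 2 was the low array, and knockout replicate 1 lay between the wildtype values. The difference of means was -0.18 on the log2 scale (95% interval -0.64 to 0.27; limma, unadjusted p = 0.333), with within-group SDs of 0.16 and 0.30. Leaving out knockout replicate 2 gave 0.03, and leaving out knockout replicate 1 gave -0.40, so the direction rested on 1 array. Of the 15995 genes taken at their brightest tested row, those most like Gas5 over the 4 arrays were Odc1, the first enzyme of polyamine synthesis, and the ribosomal protein gene Rpl31. After each row's mean was subtracted, they differed from Gas5 by a root mean square of 0.013 and 0.024 on the log2 scale. Odc1 read 7.43 and 7.21 in wildtype and 7.34 and 6.95 in knockout, and Rpl31 read 6.79, 6.61, 6.74 and 6.34 in the same order. They were chosen for this likeness, and Rpl31 belongs to a family with many near-identical copies that its row may also detect. Odc1 had more than this row: its difference between genotypes was -0.17 here and -0.08 in the mean over its tested rows. The number of the Odc1 row used here (6960086) is near that of Slc17a7 (6960344). Where on the genome the Odc1 and Rpl31 rows lie was not tested, nor whether they report these genes or copies of them.

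Snhg3, the host of H/ACA box small nucleolar RNAs of the U17 family, stood on the other side of 0 (row 7021072). The number of this row is far from those of Phactr4, the gene beside Snhg3 on chromosome 4 (rows 6917511 and 6925798). It is nearer that of Xist, an RNA of the X chromosome (row 7018649). Where on the genome the Snhg3 row lies was not tested, nor whether it reports the gene on chromosome 4. Snhg3 read 6.76 and 7.08 in wildtype and 7.10 and 7.06 in knockout. Wildtype replicate 1 was low and the other 3 arrays lay between 7.06 and 7.10. The difference of 0.16 (95% interval -0.16 to 0.48; limma, unadjusted p = 0.250) was -0.00 without wildtype replicate 1 and 0.32 without wildtype replicate 2. Snhg11, a host with strong expression in neurons, was the steadiest of the 8 rows (row 6882738). Its values were 9.90 and 9.87 in wildtype and 9.88 and 9.93 in knockout, a range of 0.07 over all arrays. The groups overlapped and the difference was 0.03 (95% interval -0.12 to 0.17), an interval that reaches from 1.09-fold lower to 1.13-fold higher.

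Miat, the neuronal RNA of nuclear spots, read 8.12 and 8.19 in wildtype and 8.26 and 8.22 in knockout (row 6941118). Both knockout arrays were above both wildtype arrays, by a margin of 0.03 between the nearest arrays. The means were 8.16 ± 0.05 and 8.24 ± 0.02 (SD, n = 2 each), which is 1.06-fold higher in the knockout (95% interval 0.953 to 1.17; limma, unadjusted p = 0.218). With 1 array left out the difference stayed between 0.05 and 0.12. Tug1 read 9.70 and 9.81 in wildtype and 9.77 and 9.58 in knockout (row 6785617). Knockout replicate 2 was again the low array, and the numbered pairs went in opposite directions, 0.07 for replicate 1 and -0.23 for replicate 2. The difference of means was -0.08 (95% interval -0.31 to 0.16; limma, unadjusted p = 0.432) and 0.02 without knockout replicate 2.

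**Figure D2:**
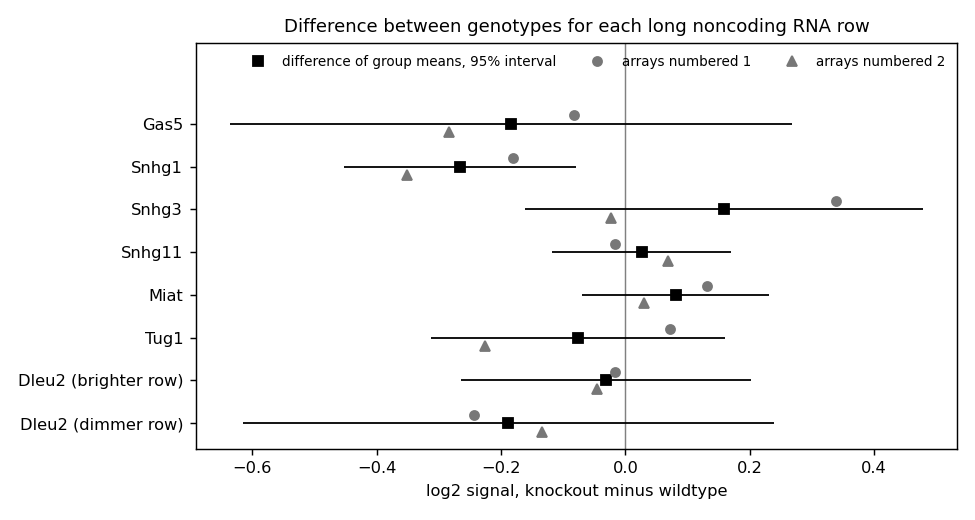
Difference in log2 array signal between knockout and wildtype (horizontal axis) for each of the 8 rows. Squares are the difference of group means with its 95% interval from limma, circles the difference within replicate 1 and triangles that within replicate 2. The interval of Snhg1 (-0.45 to -0.08) leaves out 0 and those of the other 7 rows include it.

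Dleu2, the host of the microRNAs shown above, had 2 rows with the same order of the 4 arrays, which Gas5 shared. The brighter row (6825227) read 6.87 and 6.74 in wildtype and 6.85 and 6.69 in knockout. The dimmer row (6825228) read 6.66 and 6.29 in wildtype and 6.42 and 6.16 in knockout. Both arrays numbered 1 lay above both arrays numbered 2 in each row. The differences were -0.03 (95% interval -0.26 to 0.20) and -0.19 (-0.62 to 0.24), with unadjusted limma p values of 0.738 and 0.297. The platform's Entrez identifier for Dleu2 differed from RefSeq's, so these rows were matched by symbol only.

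Among the 8 rows, 5 (Gas5, Snhg1, Tug1 and both of Dleu2) had their lowest value in knockout replicate 2. Over all rows tested that array was the lowest in 38%. The range over the 4 arrays had a median of 0.28 in the 8 rows and 0.15 over all rows tested, and the half-width of the 95% interval had medians of 0.24 and 0.18. Without knockout replicate 2, 2 of the 8 rows lay below 0 in place of 5, the ones left being Snhg1 (-0.25) and the dimmer Dleu2 row (-0.06), and 0 rows had an unadjusted limma p under 0.05. The median of the 8 rows was then 0.02. The part of that array in the differences of Gas5 and Tug1 was not tested beyond these values.

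**Figure D3:**
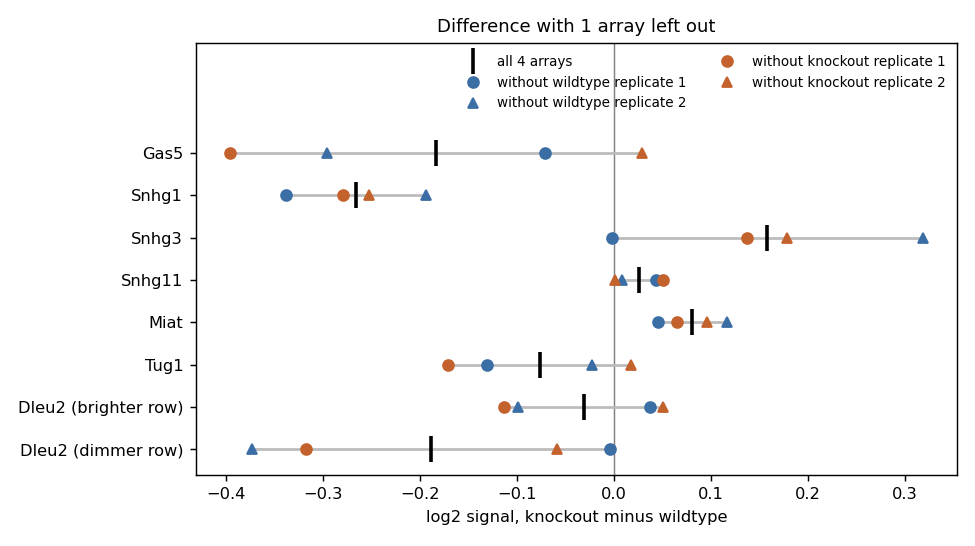
Difference in log2 array signal between knockout and wildtype (horizontal axis) for the 8 rows with all 4 arrays (black bar) and with 1 array left out (blue: a wildtype array, orange: a knockout array, circle: replicate 1, triangle: replicate 2). Snhg1 stays between -0.34 and -0.19, while Gas5 runs from -0.40 to 0.03 and Snhg3 from -0.00 to 0.32.

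Of the other small nucleolar RNA host genes, 11 rows of 10 genes were tested, and 9 rows lay below 0 and 2 above, with a median of -0.02. None passed the threshold and 0 had an unadjusted p under 0.05 by limma. The values farthest from 0 were those of Snhg5 (-0.20, 95% interval -0.49 to 0.09, with a dimmer row at -0.07), Snhg20 (-0.16, -0.40 to 0.08), Snhg6 (0.12, -0.06 to 0.30) and Zfas1 (0.08, -0.26 to 0.42). The brighter Snhg5 row read 6.25 and 6.06 in wildtype and 6.06 and 5.85 in knockout, so knockout replicate 2 was the low array here too. Of the proteins that join small nucleolar RNAs in ribonucleoprotein particles, 7 of 11 rows lay below 0 with a median of -0.07, 0 passed the adjusted limma threshold and 1 had an unadjusted p under 0.05. That row was one of 4 named Nop56, a core C/D box protein, with 8.81 and 8.54 in wildtype and 8.38 and 8.25 in knockout (-0.36, 95% interval -0.66 to -0.06; adjusted p = 1). The other Nop56 rows lay between -0.08 and 0.02. The row at -0.36 (6828289) is numbered far from these (6867754, 6881172 and 7015685), and where each lies on the genome was not tested. Nhp2 (0.13) and Nop10 (-0.12), core H/ACA proteins, and Naf1 (-0.11), an H/ACA assembly factor, came next.

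Nonsense-mediated decay factors, which limit the spliced RNA of several hosts, were measured in 24 rows of 13 genes. Of these rows 15 lay below 0 and 9 above, with a median of -0.02, 0 passed the adjusted limma threshold and 1 had an unadjusted p under 0.05. This was a row named Eif4a3, a subunit of the exon junction complex, at -0.35 (95% interval -0.63 to -0.06; adjusted p = 1). The other 3 Eif4a3 rows lay between -0.04 and 0.07. The one at 0.03 (6792699) is numbered beside Rbfox3 (6792666) and far from the row at -0.35 (6950478). Where each row lies on the genome was not tested. The decay factor Upf2 had its brightest row at -0.14 and others at -0.06 and 0.05. Upf1, the helicase of the pathway, had its brightest row at -0.06 and others at 0.12 and -0.01. The junction complex subunit Rbm8a stood at -0.10. Proteins that bind the chosen RNAs or are encoded beside them had a median of -0.01 over 16 rows, with 10 below 0 and 0 at an unadjusted limma p under 0.05, and 0 passed the adjusted threshold. Hnrnpa2b1, which binds Rmst, had its dimmest row at -0.35 (95% interval -0.97 to 0.28) with knockout arrays of 5.65 and 6.32, and that row was at -0.013 without knockout replicate 1. The brighter Hnrnpa2b1 rows stood at 0.05 and 0.03. The Polycomb subunit Suz12 stood at -0.13, the amino acid transporter subunit Slc3a2 at -0.08 and the ubiquitin ligase Trim13 at -0.05.

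The nearest protein-coding genes on the chromosome all had adjusted limma p values of 1, and the lowest unadjusted p among their rows was 0.102 (Dleu7). Next to Snhg1, Slc3a2 read 7.43 and 7.47 in wildtype and 7.41 and 7.32 in knockout (-0.08, 95% interval -0.24 to 0.08), and Wdr74 stood at -0.09 (-0.31 to 0.13). Both lay below 0 as Snhg1 did, and whether Snhg1 differed from them was not tested. Zbtb37, which overlaps Gas5, stood at 0.04. The Snhg3 neighbour Phactr4 had rows at 0.04 and 0.05. Lbp (-0.08) and Ralgapb (-0.04) flank Snhg11, and Smtn (0.07) and Morc2a (-0.03) flank Tug1. Mn1 (0.06) and Cryba4 (-0.05 and 0.10) flank Miat. Trim13 (-0.05) and Kcnrg (-0.04) overlap the span of Dleu2, and Spryd7 (-0.01 and 0.04) and Dleu7 (0.11) beside it. Tmpo, beside Rmst, stood at -0.05.

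A list of other long noncoding RNAs known from brain was tested in 37 rows of 22 genes. It included Dleu7 (0.11), which RefSeq gives as protein-coding. Of the 37 rows, 15 lay below 0 and 22 at or above it (Sra1 at 0), with a median of 0.01. None passed the adjusted limma threshold and 2 rows had an unadjusted p under 0.05. One was a row of Kcnq1ot1, the antisense RNA of an imprinted domain (-0.53, 95% interval -0.86 to -0.20), and the other was Epb41l4aos (0.21, 0.07 to 0.35). A row named Rian, a maternally expressed imprinted RNA, stood at 0.30 (-0.27 to 0.87) and the imprinted Peg13 at -0.15 (-0.34 to 0.04). Neat1, the paraspeckle RNA beside Malat1, was not on this list. Its brighter row was at -0.59 (95% interval -0.84 to -0.34; limma, unadjusted p = 0.00225, adjusted p = 0.994) and its dimmer row at 0.05. By p the brighter Neat1 row ranked 46th among the rows tested.

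**Figure D4:**
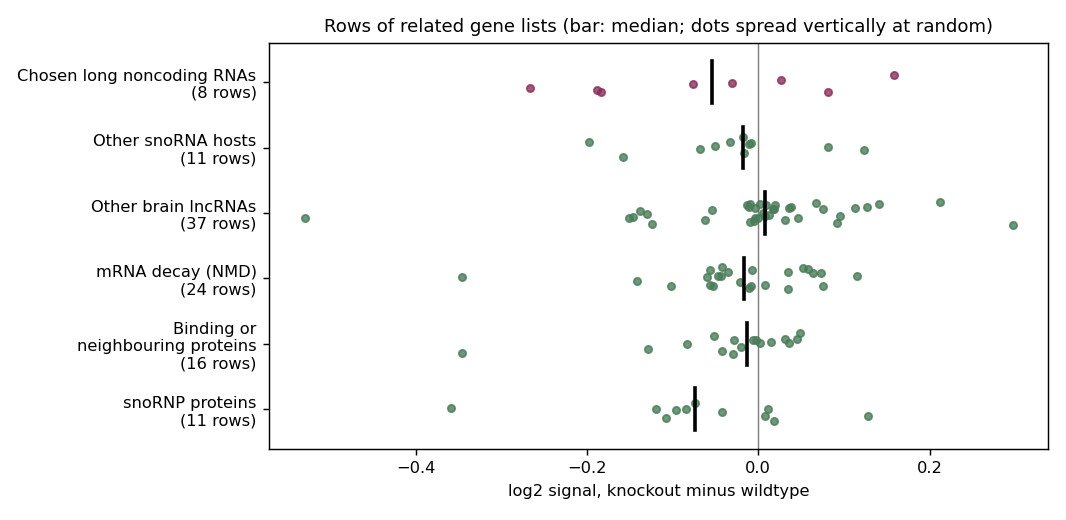
Difference in log2 array signal between knockout and wildtype (horizontal axis) for every tested row of the chosen long noncoding RNAs and of the 5 related lists. Each dot is a row, the bar is the list's median, and the vertical scatter within a list is random. List medians lie between -0.07 and 0.01, and single rows of Kcnq1ot1, Nop56, Eif4a3 and Hnrnpa2b1 lie farthest to the left.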

How the data were processed

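Total RNA of 4 hippocampi was extracted with Trizol and amplified from poly(A) tails with a 3′ in vitro transcription kit, per the labels' protocols, 1 array per animal. That kit yields antisense RNA, whereas exon arrays are built for sense targets, and the strand a row reports on was not tested. The authors deposited log2 expression values, per the range of the values (4.16 to 14.26). Their normalization and software are not stated in the labels or the table. Per the submitters' processing notes the build was mm9. Depth does not apply to arrays, and the number of arrays limits the precision.

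Rows were named through GEO's platform annotation and used only if they had 1 symbol (27090 rows with 1 symbol, 2498 with several, 235923 with none). Of 20711 Entrez identifiers, 20225 were in RefSeq's table (GRCm38.p6), used for names and gene order. Some rows of the same symbol have numbers far apart, and where a row lies on the genome was not tested. Rows with a mean under the 25th percentile (5.70) were left out, and the remaining 20317 rows were each fitted with genotype as the only term in limma 3.58.1 (R 4.3.3, two-sided), with Benjamini-Hochberg adjustment at 0.05. The prior variance was worth 2.42 degrees of freedom. In each list the 4 rows farthest from 0 are named, with the 2 genes most like the widest-ranging RNA and the nearest protein-coding genes. The RNAs and lists were chosen with earlier results of these data known. The labels call the arrays biological replicates.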

Additional observations from a re-analysis of the deposited data

How the results depend on the processing

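The count of chosen rows past the adjusted limma threshold was 0 under all 12 alternatives: the replicate block, quantile normalization, equal array medians, no filter, a filter at the 50th percentile, the brightest row or the mean per gene, an intensity trend, and each array left out. At an unadjusted p under 0.05 the count was 0 to 2, with 2 under the replicate block (Snhg1 and the dimmer Dleu2 row) and 0 without knockout replicate 2 and with the higher filter, which removed Snhg1. Where the count was 1 the row was not always Snhg1: it was Snhg3 without wildtype replicate 2 and Gas5 without knockout replicate 1. The block rests on shared numbers only: same-numbered deviations from the group means correlated at 0.08 across rows, and a block cannot move a difference of means in this balanced design (Snhg1 -0.27, adjusted p = 0.765 under the block). The median of the chosen rows ran from -0.14 to 0.02 with 1 array left out and from -0.08 to -0.00 under the other alternatives. Malat1 alone was called in the main setting, and 0 rows were called under the replicate block (Malat1 adjusted p = 0.0591), with no filter (0.0720) and with any array left out. Rows with an unadjusted p under 0.05 numbered 817, and 1808 without knockout replicate 1.

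Several values near 0 changed sign with 1 array left out, and the cause was not tested. Their ranges were -0.396 to 0.0288 for Gas5, -0.00205 to 0.319 for Snhg3, -0.171 to 0.0181 for Tug1 and -0.113 to 0.0509 for the brighter Dleu2 row. They were -0.0818 to 0.244 for Zfas1, -0.0410 to 0.272 for Upf1, -0.213 to 0.00801 for Rbm8a, -0.367 to 0.0232 for Odc1, -0.359 to 0.0441 for Rpl31 and -0.0149 to 0.106 for the dimmer Neat1 row. Among chromosomal neighbours they were -0.112 to 0.00678 for the brighter Cryba4 row, -0.0965 to 0.0111 for Kcnrg, -0.184 to 0.0293 for Lbp, -0.0749 to 0.0160 for Morc2a, -0.0245 to 0.108 for the brighter Phactr4 row, -0.108 to 0.0383 for Ralgapb, -0.00963 to 0.157 for Smtn, and -0.0243 to 0.101 and -0.0358 to 0.00837 for the dimmer and brighter Spryd7 rows. The mean over rows gave Cryba4 0.0243 and Spryd7 0.0123, and quantile normalization gave the brighter Spryd7 row 0.00228.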

Other observations

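Kcnq1ot1 was tested in 7 rows, and the row at -0.53 read 6.56 and 6.71 in wildtype against 5.95 and 6.26 in knockout. The other Kcnq1ot1 rows lay between -0.15 and -0.00. Rian rows other than the one at 0.30 lay between -0.01 and 0.09. The rows at 0.30 (7011647) and -0.01 (7011646) are numbered far from the other Rian rows (6797992 and 6797993). Where each lies on the genome was not tested.

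Of the 27090 singly named rows, 4 held the same value on all 4 arrays. The row of Sra1, a steroid receptor RNA activator, was one of them, at 6.87, and none of the 8 rows of the chosen RNAs was. Sra1 was singled out after its values were seen, as were the rows of Xist, Kdm5d, Eif2s3y and Uty.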
